A study of Mus musculus with 16 samples.

Results

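The comparison described here is the loss of Grn in mouse bone-marrow-derived macrophages that carried a control edit. Its members were the samples labelled GrnKO or WT with the treatment Rosa26, which made 8 of the 16 samples of the series. The 4 GrnKO Rosa26 samples came from Grn-/- mice and the 4 WT Rosa26 samples from Grn+/+ mice, all labelled as C57Bl/6J males of 12 weeks that carry the knock-in allele hTfRmu/hu. Cells of both groups were thawed from frozen stocks, grown in 50 ng/mL M-CSF and transfected with Cas9, with Rosa26 given as the treatment, so the WT cells had been through the edit too. RNA was taken 10 days after transfection and read as 3′ tags. Each of the 4 batches held 1 sample of each group. The other 8 samples, GrnKO TKO and WT TKO, had guides to Mitf, Tfe3 and Tfeb. They entered the same fit, in which all groups share the estimate of the spread. Their own comparison serves only to test whether a change differed with the edit.

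Progranulin, the product of Grn, is a secreted glycoprotein that is also delivered to lysosomes and is cut there into granulins. Macrophages and microglia are among the cells that make most of it, and its loss in mice is known for lysosomal storage and altered inflammatory responses of these cells. Mitf, Tfe3 and Tfeb encode transcription factors of the MiT/TFE family, which bind E-box motifs in lysosomal and autophagy genes. The results below take up the genes outside the lysosomal and cholesterol pathways.

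The totals of the libraries lay between 28431639 and 32969630 counts in GrnKO Rosa26 and between 7069527 and 22469456 in WT Rosa26, where replicate 1 was the shallowest, so depth differed with genotype. The deposited counts carry 2 significant digits, so levels are no finer than that. All samples are labelled male, but Xist, which coats the inactive X, lay between 172 and 204 CPM (counts per 1000000 counts) in GrnKO replicates 1 to 3, with the Y-linked Ddx3y at 0.143 CPM or less. GrnKO replicate 4 had Ddx3y at 97.3 CPM and Xist at 15.6 CPM. In WT, replicates 1 and 4 had Xist at 169 and 269 CPM, replicate 3 had Ddx3y at 108 CPM, and replicate 2 had both transcripts, at 212 and 34.2 CPM. The macrophage markers Csf1r, at 422 ± 7.19 CPM in GrnKO and 390 ± 12.5 CPM in WT, and Cd68, at 797 ± 39.2 CPM in GrnKO and 906 ± 140 CPM in WT, were high in both groups. Of the 12 macrophage markers 1 rose and 6 fell, where 23.1% of all genes tested rose and 21.5% fell. The rise was Mertk, at 194 CPM in GrnKO and 101 CPM in WT. The falls included Adgre1, at 294 CPM in GrnKO and 605 CPM in WT, and C1qa, at 339 CPM in GrnKO and 647 CPM in WT. The summed level of the 12 was 7016.9 to 7617.5 CPM in GrnKO and 9309.5 to 11207.3 CPM in WT. Of the markers of other cell types, 8 of 10 for neutrophils, 9 of 10 for lymphocytes, 9 of 9 for mast cells and basophils, 7 of 9 for dendritic cells and 8 of 10 for stromal cells stayed under 1 CPM in all 8 libraries. The endothelial markers summed to 52.8 to 61.2 CPM in GrnKO and 27.1 to 39.5 CPM in WT. Of the 5 tested, 2 rose and 1 fell. The rises were Kdr, at 36.0 CPM in GrnKO and 11.8 CPM in WT, and Vwf, at 15.1 CPM in GrnKO and 9.81 CPM in WT. The fall was Pecam1, at 0.750 CPM in GrnKO and 1.49 CPM in WT. The lymphocyte markers summed to 15.5 to 25.0 CPM in GrnKO and 4.99 to 8.70 CPM in WT. Their part in the results, and that of depth, was not tested beyond the settings named.

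Grn itself checked the genotype labels. It was at 50.0, 54.8, 45.4 and 44.2 CPM in the 4 GrnKO libraries and at 3693.2, 2875.0, 3334.5 and 3071.8 CPM in the 4 WT libraries. No library crossed between genotypes, and the log2 fold change was -6.06 ± 0.13 (± SE, edgeR quasi-likelihood test, Benjamini-Hochberg adjusted p = 3.2e-16, as for all fold changes and adjusted p-values here). All fold changes are GrnKO over WT on the log2 scale, and levels are means ± SD in CPM with n = 4 per group.

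A large part of the transcriptome differed between GrnKO and WT cells, mostly by small steps. At an adjusted p under 0.05, 3548 genes were called higher (23.1%) and 3310 lower (21.5%), or 44.6% of the 15385 tested. The median log2 change was 0.52 among rises and -0.70 among falls. A change of more than 2-fold was found for 426 rises (2.77%) and 1147 falls (7.46%). Without the libraries that carry Y-linked transcripts, 2314 genes rose and 2272 fell in a fit of the 10 remaining libraries of the series with no batch term (called the 10 libraries of little Y-linked signal), with 448 rises and 1138 falls of more than 2-fold. For the Rosa26 comparison that fit held GrnKO replicates 1 to 3 and WT replicates 1 and 4 only. In it, fewer libraries and the lack of Y-linked signal cannot be told apart. In the full set, the libraries of both groups did not overlap for 34.5% of the genes tested.

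Large falls were frequent among pseudogenes and genes of low level. Rises had a median level of 30.3 CPM and falls of 14.4 CPM, and over 2-fold these medians were 4.33 and 1.40 CPM. Of 961 transcribed pseudogenes tested, 19 rose and 653 fell, 68.0% against 21.5% of all genes, and 527 of the 1147 falls of more than 2-fold (45.9%) were pseudogenes. Among the 12586 protein-coding genes 3336 rose and 2362 fell, and 337 rose and 463 fell by more than 2-fold. Pseudogenes named after a cytosolic ribosomal protein gene made up 111 of those tested, of which 100 fell and 0 rose by edgeR, with a median of -1.51 (0 rose at an unadjusted p under 0.05, 0 by DESeq2 and 1 by limma). Pseudogenes held 0.564 to 0.633% of all counts in the GrnKO libraries and 0.758 to 1.27% in the WT libraries, with WT replicate 1 the highest. Copies share sequence with their parent genes, and the counts are estimates that can be split between them, so single pseudogenes are uncertain. Falls of more than 2-fold numbered 415 of 961 pseudogenes without WT replicate 1, and 348 of 593 after all libraries were thinned to the smallest total. Thinning keeps the share of each gene within a library. Without WT replicate 1 all GrnKO libraries were still deeper than all WT libraries. The part of depth in the pseudogene falls was thus not tested.

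**Figure D1:**
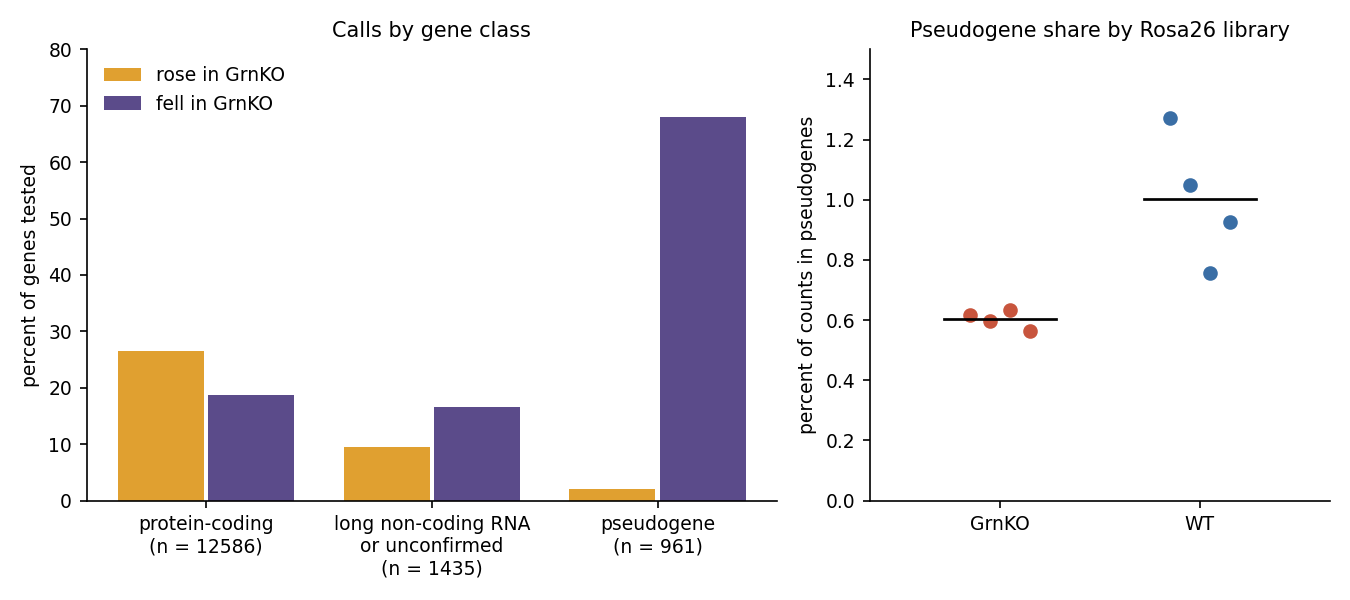
Left, share of genes tested (percent, axis from 0) that rose or fell in GrnKO Rosa26 against WT Rosa26 at an adjusted p under 0.05, for each gene class. Right, share of counts (percent, axis from 0) in pseudogenes in each library, with GrnKO left of WT and a bar at each mean: the 4 GrnKO libraries sit between 0.564 and 0.633%, below all 4 WT libraries at 0.758 to 1.27%. All GrnKO libraries were also deeper than all WT libraries.

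The largest rises were in genes of several functions. These are the 15 called genes with the largest rise among those at 5 CPM or more in a group, with 1 direction in all batches. Tspan7, a tetraspanin of the cell membrane, was at 19.7, 18.6, 18.2 and 18.9 CPM in GrnKO and at 1.23, 0.274, 0.631 and 0.823 CPM in WT. The GrnKO libraries were close together and all lay far above the WT libraries (4.78 ± 0.35, adjusted p = 5.7e-08). Bex1, a small adaptor best known from neurons, was at 5.36, 10.0, 8.39 and 5.01 CPM in GrnKO and at 0, 0.137, 0.360 and 0 CPM in WT (5.52 ± 0.48, adjusted p = 1.4e-07), so its fold rests on few WT reads. Bex1 and Tspan7 lie on the X chromosome, and both stayed called in the fit without the libraries of Y-linked transcripts.

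Cd28 and Lat, both best known from T cells, were among the 15 largest rises. Cd28, a costimulatory receptor, was at 89.4, 91.3, 97.8 and 85.5 CPM in GrnKO and at 7.39, 10.3, 15.3 and 12.6 CPM in WT (2.98 ± 0.14, adjusted p = 4.2e-11). Lat, the adaptor that links the T cell receptor to downstream signals, was at 6.43, 5.48, 8.39 and 4.42 CPM in GrnKO and at 1.54, 0.890, 1.53 and 0.439 CPM in WT (2.63 ± 0.30, adjusted p = 1.5e-06). The groups did not overlap for either gene. The defining T cell markers were near 0 in both groups: Cd3e averaged 0.0711 CPM in GrnKO and 0.0817 CPM in WT, and Trac averaged 0.0235 CPM in GrnKO and 0.0659 CPM in WT. Of the 10 lymphocyte markers Ighm was the one tested, at 19.2 ± 3.97 CPM in GrnKO and 5.92 ± 1.87 CPM in WT (1.66 ± 0.25, adjusted p = 8.0e-05).

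Cdkn1c, Gadd45a and Mfge8 were also among the 15. Cdkn1c, an inhibitor of cyclin-dependent kinases, was at 64.3, 42.6, 34.9 and 44.2 CPM in GrnKO and at 6.77, 6.78, 3.74 and 8.23 CPM in WT (2.85 ± 0.22, adjusted p = 1.5e-07). Gadd45a, a stress sensor induced by DNA damage among other signals, was at 24.7, 33.5, 30.1 and 32.4 CPM in GrnKO and at 4.31, 4.93, 6.31 and 5.49 CPM in WT (2.49 ± 0.15, adjusted p = 5.5e-10). Both genes were higher in each GrnKO library than in any WT library. Mfge8, a bridge between dying cells and phagocytes, was at 643, 730, 734 and 501 CPM in GrnKO and at 109, 130, 108 and 104 CPM in WT, with GrnKO replicate 4 the lowest of its group (2.52 ± 0.12, adjusted p = 1.9e-10).

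Dio2 (5.55 ± 0.17), an enzyme that activates thyroid hormone, Mgll (4.77 ± 0.25), the monoacylglycerol lipase, Adamts1 (3.74 ± 0.19), a secreted protease, and Fabp4 (2.34 ± 0.14), a fatty acid carrier, also belonged to this set. The rest were Rab15 (2.97 ± 0.25), a GTPase of recycling endosomes, Osbp2 (2.23 ± 0.18), an oxysterol-binding protein, the membrane protein gene Tmem154 (2.49 ± 0.22) and Fam171a2 (2.67 ± 0.25), which lies on chromosome 11 as Grn does. In none of the 15 genes did the libraries of both groups overlap. All 15 stayed called in the same direction under each alternative setting in which they were tested.

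Promoters of these genes were searched for E-box motifs, which the MiT/TFE factors edited in the TKO cells bind, and for the AP-1 motif. The windows were the 250 bases upstream of RefSeq gene starts in GRCm38.p6, an older build than the GRCm39 of the counts. A promoter was held for 11 of the 15 largest rises and 5 of the 15 largest falls. The motif TCACGTG, the core of the CLEAR element bound by MiT/TFE factors, was found on either strand in 1 of the 11, against 5.77% of the 10513 genes tested that have a promoter. The shorter E-box CACGTG, which every TCACGTG contains, was found in 3 of the 11, against 9.89% of these genes. The AP-1 motif TGANTCA was in 2 of the 11, against 5.63%. Over all 27025 genes with a promoter the shares were 3.58%, 6.86% and 7.82%. The counts among the 11 are a description with no test. None of the 3 motifs was found in the 5 promoters of the largest falls. Among all genes that rose, 7.00% of 2759 promoters held TCACGTG, against 5.00% of 1960 among genes that fell and 5.77% of 10513 among genes tested, each with no test. For TGANTCA these shares were 5.18%, 6.94% and 5.63%. Over 2-fold, TCACGTG was in 6.07% of the promoters of rises and 2.81% of those of falls, and TGANTCA in 8.21% and 8.99%, again with no test. The 3 stretches that hold a match to TCACGTG or TGANTCA are printed on the strand of the gene, with the match in capitals, since they belong to rises named above.
Osbp2, chr11:3863978-3864037, minus strand: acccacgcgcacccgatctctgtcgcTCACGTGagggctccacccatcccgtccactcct
Rab15, chr12:76818565-76818624, minus strand: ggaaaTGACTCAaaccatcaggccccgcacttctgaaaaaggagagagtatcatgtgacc
Tmem154, chr3:84666121-84666180, plus strand: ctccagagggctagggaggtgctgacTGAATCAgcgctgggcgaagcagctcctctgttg
The match in Osbp2 lies 108 bases before one of its annotated starts, that in Rab15 245 bases and that in Tmem154 45 bases. A match describes these letters and shows no binding.

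**Figure D2:**
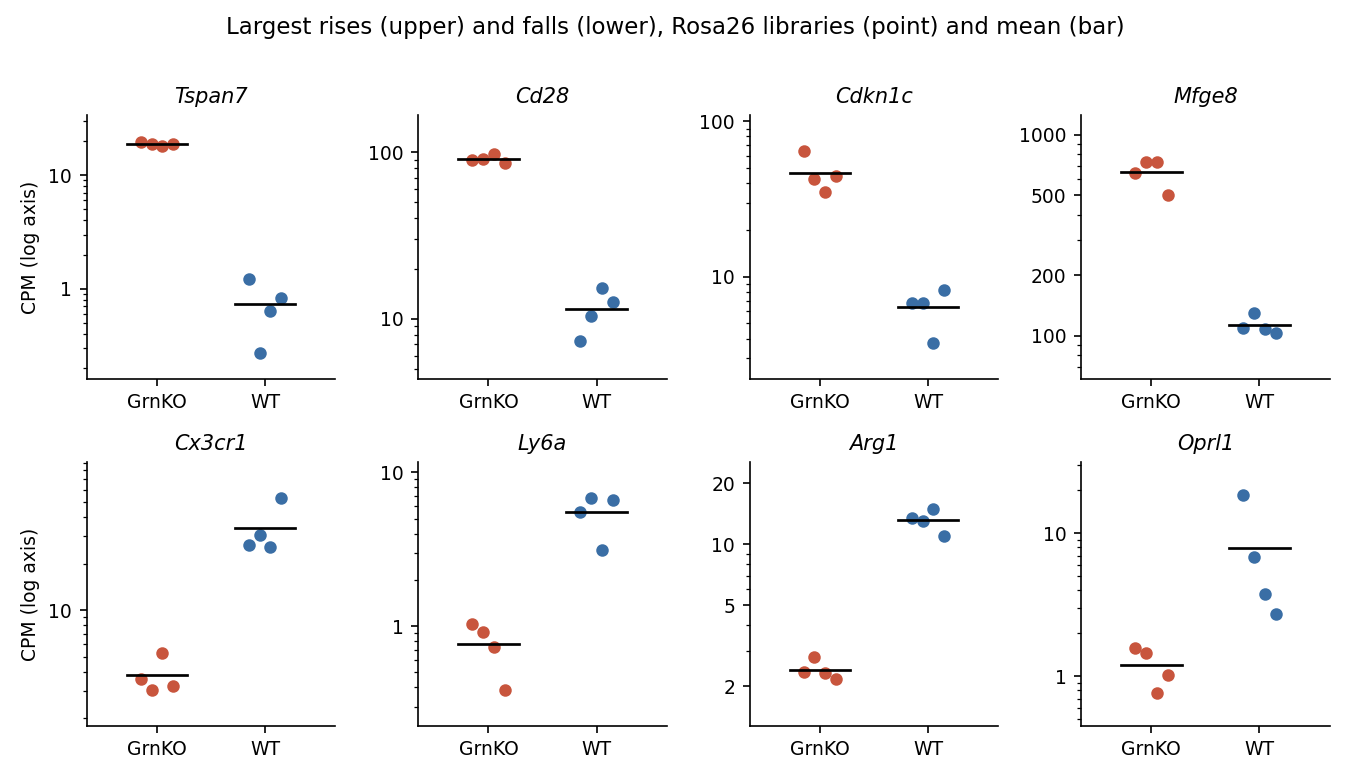
Level in CPM (log axis) of 4 of the largest rises (upper row) and 4 of the largest falls (lower row) in each library, with GrnKO left of WT and a bar at each mean. In each of the 8 panels the GrnKO libraries lie on one side of all WT libraries, and the WT libraries of Oprl1 span 2.74 to 18.5 CPM.

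Cx3cr1 and Ly6a had the largest falls on the log2 scale, and Arg1 and Saa3 were among the 15 largest. Cx3cr1, the fractalkine receptor of monocytes and microglia, was at 3.57, 3.04, 5.24 and 3.24 CPM in GrnKO and at 26.2, 30.8, 25.7 and 53.2 CPM in WT (-3.15 ± 0.36, adjusted p = 6.1e-05). WT replicate 4 was the highest, and no GrnKO library came near the WT libraries. Arg1, the arginase of alternatively activated macrophages, was at 2.36, 2.80, 2.34 and 2.18 CPM in GrnKO and at 13.5, 13.0, 14.9 and 11.0 CPM in WT (-2.43 ± 0.14, adjusted p = 3.0e-10). Ly6a, a surface antigen that interferon induces, was at 1.04, 0.913, 0.734 and 0.383 CPM in GrnKO and at 5.54, 6.85, 3.15 and 6.58 CPM in WT (-2.86 ± 0.44, adjusted p = 3.0e-04). Both genes were lower in every GrnKO library than in any WT library. Saa3, an acute phase protein that macrophages make, fell by a similar amount (-2.38 ± 0.29, adjusted p = 8.7e-05).

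Several falls had a wide spread in WT, with replicate 1, the shallowest library, the highest. Oprl1, the nociceptin receptor, was at 1.57, 1.46, 0.769 and 1.03 CPM in GrnKO and at 18.5, 6.85, 3.74 and 2.74 CPM in WT (-2.44 ± 0.31, adjusted p = 1.2e-05). Pamr1, a secreted protein with a protease-like domain, was at 13.9, 12.5, 14.7 and 7.08 CPM in GrnKO and at 142, 82.1, 54.1 and 54.9 CPM in WT (-2.73 ± 0.19, adjusted p = 1.9e-07). The WT libraries thus differed among themselves more than the GrnKO libraries did, while the groups stayed apart. Stpg3 (-2.29 ± 0.21) and 3010001F23Rik (-2.22 ± 0.16) showed the same order of WT replicate 1 above the others. Ugt1a9 (-2.15 ± 0.30) and Ugt1a1 (-2.14 ± 0.28), glucuronosyltransferases, share their last exons and with them their 3′ tags, so they are not separate observations. The other 5 of the 15 were Gm5100, Rpl35a-ps5, Gm10029, Gm7143 and Gm49368, between -2.74 and -2.10. Their counts may be shared with near-identical copies. All 15 stayed called in the same direction under each alternative setting in which they were tested, WT replicate 1 left out included.

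The 10 genes with the largest gains in CPM differed in what they encode. Fabp5, a fatty acid carrier, was at 2180.7, 2190.3, 1956.9 and 1857.8 CPM in GrnKO and at 739, 664, 946 and 428 CPM in WT (1.60 ± 0.16, adjusted p = 4.1e-06). Cd5l, a secreted scavenger protein of tissue macrophages, was at 1805.2 ± 167 CPM in GrnKO and 958 ± 293 CPM in WT. Timp2, an inhibitor of matrix metalloproteases, was at 1823.2 ± 26.0 CPM in GrnKO and 1100.2 ± 130 CPM in WT (0.73 ± 0.07). Syngr1, a protein of synaptic vesicles, was at 431 ± 23.3 CPM in GrnKO and 158 ± 41.7 CPM in WT (1.47 ± 0.12). The groups did not overlap for these 4 genes. Slc6a6 (0.69 ± 0.10), the taurine transporter, Nceh1 (0.77 ± 0.10), a hydrolase of cholesteryl ester, Ptms (0.77 ± 0.10), Lgals3 (0.35 ± 0.07), the galectin of macrophages, and Selenop (0.30 ± 0.07), the carrier of selenium, rose too, and Mfge8 completed the 10.

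The largest losses in CPM were those of Fth1, the long non-coding RNA Malat1 and Ftl1. Fth1 was at 13390.8 ± 1473.9 CPM in GrnKO and 17944.1 ± 3499.6 CPM in WT (-0.41 ± 0.09), and Ftl1 at 4423.3 ± 698 CPM in GrnKO and 6810.8 ± 1716.2 CPM in WT (-0.61 ± 0.10). They encode the heavy and light chains of the iron store ferritin. S100a6, a calcium-binding protein, was at 1930.5, 1734.0, 1852.1 and 1710.3 CPM in GrnKO and at 3077.7, 3217.3, 2883.9 and 3017.0 CPM in WT (-0.76 ± 0.07, adjusted p = 2.7e-07). Actb (-0.42 ± 0.06), the cytoplasmic actin, Rtn4 (-0.89 ± 0.11), which shapes the endoplasmic reticulum, and Lyz2 (-0.55 ± 0.07), the lysozyme of myeloid cells, fell as well. Rps27a (-0.65 ± 0.08) and Rps14 (-0.50 ± 0.08) encode ribosomal proteins, and ribosomal protein genes together took 6.74 ± 0.294% of the counts in GrnKO against 8.89 ± 0.584% in WT (exact permutation test, two-sided, p = 0.0286, the smallest that 4 against 4 allow). Malat1 fell (-0.59 ± 0.11), as did the long non-coding RNA Gas5, which hosts small nucleolar RNAs. Gas5 was at 751, 639, 699 and 619 CPM in GrnKO and at 3539.3, 1779.8, 1081.5 and 1261.6 CPM in WT, with WT replicate 1 far above the rest (-1.40 ± 0.27, adjusted p = 0.00175). Fth1 was no longer called in the 10 libraries of little Y-linked signal, where its change was -0.48.

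The gene lists described next are read against all genes tested, of which 23.1% rose and 21.5% fell. These shares differed with the level of a gene: 3.45% rose and 18.2% fell among genes under 1 CPM, 27.2% and 20.1% at 5 to 20 CPM, 34.5% and 20.6% at 20 to 100 CPM, and 31.5% and 28.2% over 100 CPM. With DESeq2 falls outnumbered rises over all genes, 3486 against 3356, and likewise with RLE scaling, 3464 against 3383.

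**Figure D3:**
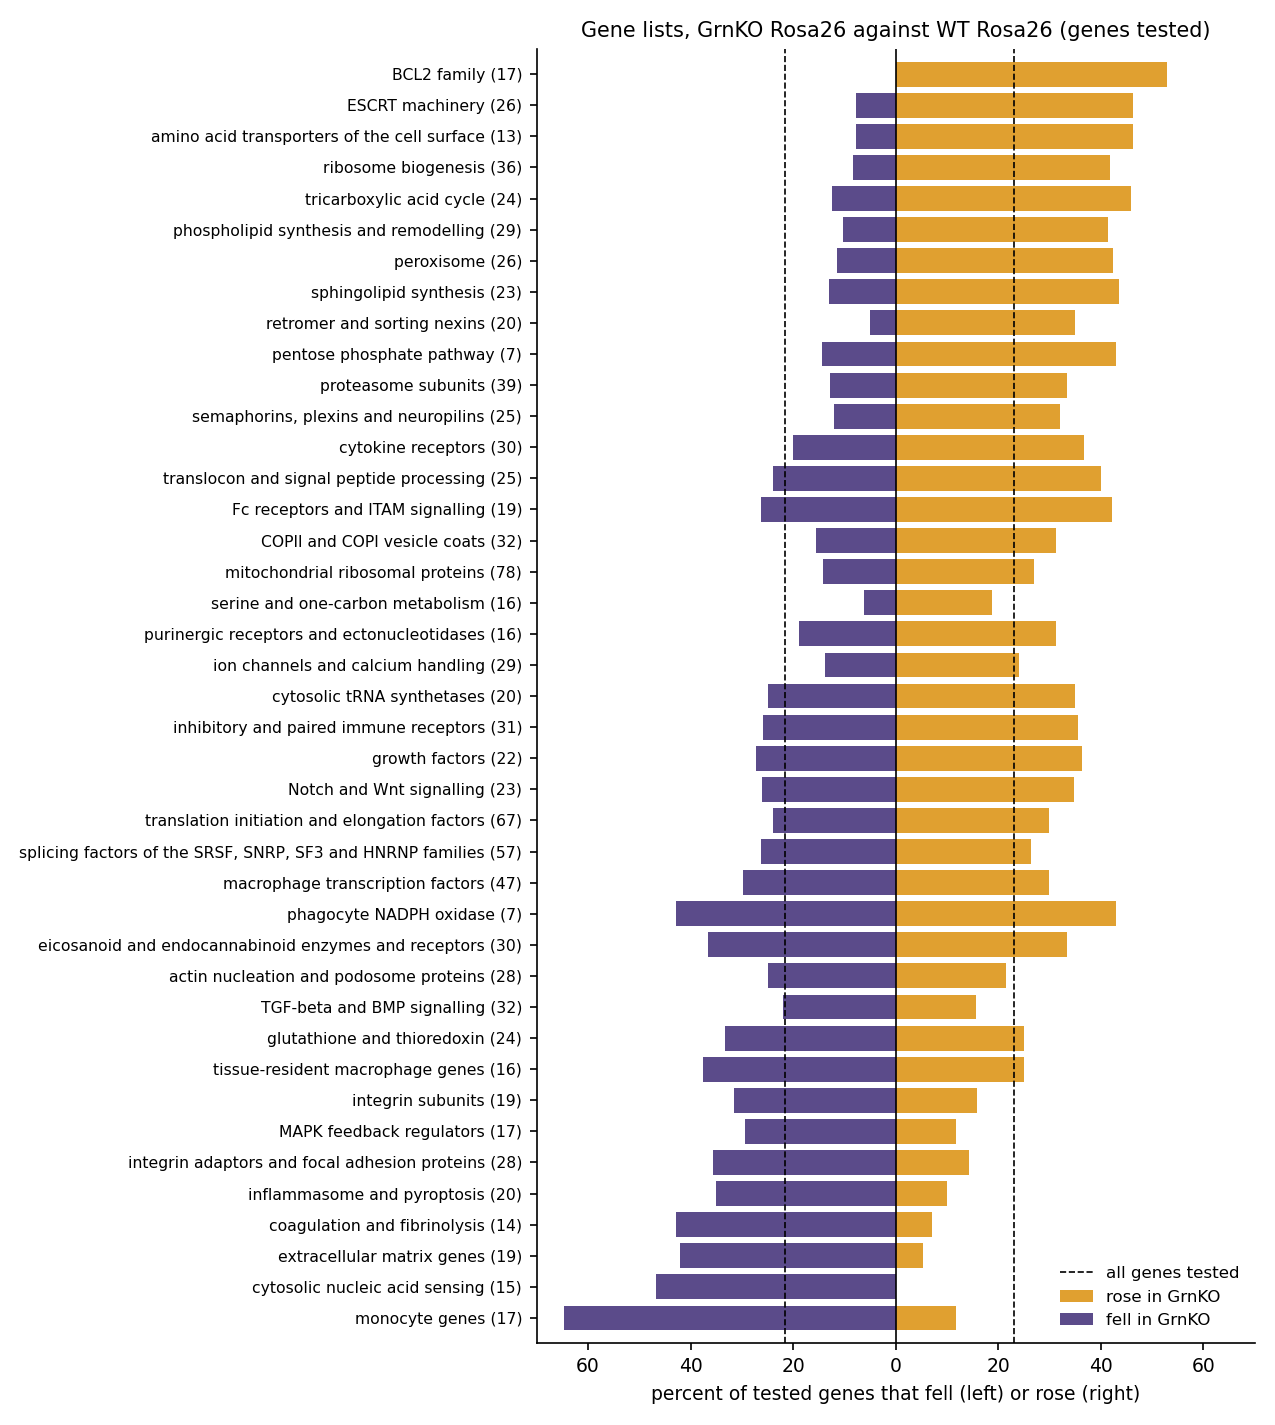
Share of the tested members of each gene list (percent, axis from 0) that rose (right of 0) or fell (left of 0) in GrnKO Rosa26 against WT Rosa26 at an adjusted p under 0.05. Dashed lines mark the shares over all genes tested, 23.1% and 21.5%; the BCL2 family lies farthest right with 52.9% of 17 genes and monocyte genes farthest left with 64.7% of 17 genes.

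Among the genes of adhesion, a beta chain of the integrins rose and several alpha chains fell. Of 19 integrin subunits tested, 3 rose and 6 fell, 15.8% and 31.6%, with a median log2 change of -0.18. Itgb3, the beta chain of the vitronectin receptor, was at 20.7, 18.3, 19.9 and 19.8 CPM in GrnKO and at 5.69, 5.13, 5.86 and 3.18 CPM in WT (2.01 ± 0.14, adjusted p = 4.5e-09). Itgam, the alpha chain of complement receptor CR3, was at 182, 222, 227 and 221 CPM in GrnKO and at 785, 507, 496 and 603 CPM in WT (-1.46 ± 0.12, adjusted p = 8.0e-08). Itgal (-1.60 ± 0.18), the alpha chain of LFA-1, and Itga6 (-0.66 ± 0.08), of the laminin receptors, also fell. Itgb3 was higher in every GrnKO library than in any WT library, and the 3 alpha chains were lower.

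Integrin adaptors and focal adhesion proteins had 4 rises and 10 falls among 28 genes, 14.3% and 35.7%, with 2 rises without WT replicate 2. Lims1 (PINCH), part of the complex that links integrins to actin, was at 82.5 ± 14.9 CPM in GrnKO and 169 ± 34.3 CPM in WT (-1.04 ± 0.09, adjusted p = 7.2e-08), and Fermt1 (-1.26 ± 0.12), a kindlin, and Ptk2 (-0.66 ± 0.11), the focal adhesion kinase, fell too. The list had more rises than falls with no filter on low counts and with limma on the authors' CPM. Among 28 genes of actin nucleation and podosomes 6 rose and 7 fell, 21.4% and 25.0%, close to the shares of all genes, an order that turned in 7 of the alternative settings. Cyfip1, of the WAVE complex, was at 125, 119, 140 and 127 CPM in GrnKO and at 462, 246, 275 and 252 CPM in WT (-1.23 ± 0.12, adjusted p = 4.6e-07), and its partner Abi1 fell too (-0.97 ± 0.11), while cortactin, Cttn, rose (1.19 ± 0.12).

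Plexins and neuropilins are receptors of semaphorins, and 3 plexins and a neuropilin were among the called rises. Of 25 semaphorins, plexins and neuropilins tested, 8 rose and 3 fell, 32.0% and 12.0%. The falls numbered 1 without GrnKO replicate 1 and 5 without GrnKO replicate 3, and the rises 5 in the 10 libraries of little Y-linked signal. Plxna1 was at 39.3, 51.7, 41.9 and 53.1 CPM in GrnKO and at 16.9, 13.7, 17.6 and 21.9 CPM in WT (1.41 ± 0.11, adjusted p = 1.3e-08). Plxnc1 was at 100, 110, 108 and 109 CPM in GrnKO and at 53.9, 47.2, 58.6 and 54.9 CPM in WT (0.99 ± 0.09, adjusted p = 1.2e-07). Each GrnKO library exceeded each WT library for both receptors. Plxna4 (1.25 ± 0.16) and the co-receptor Nrp2 (0.46 ± 0.07), which also binds VEGF, rose as well.

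Among genes of the extracellular matrix more fell than rose. Of 19 tested, 1 rose and 8 fell, 5.26% and 42.1%, and 7 fell by more than 2-fold, with a list median of -0.59 against 0.00 over all genes. The median was -0.19 without WT replicate 4 and -1.06 without GrnKO replicate 3, -0.23 with a minimum mean of 5 CPM and -0.11 with limma on log2(CPM + 1), and 4 to 10 members fell over the settings. Tgfbi, a matrix protein that TGF-beta induces, was at 104, 106, 97.8 and 97.3 CPM in GrnKO and at 385, 308, 315 and 302 CPM in WT (-1.68 ± 0.08, adjusted p = 2.7e-11). All GrnKO libraries lay at about the same level, far under the WT libraries. Emilin2 (-0.73 ± 0.08), an elastin-associated glycoprotein, and Tnc (-1.47 ± 0.21), tenascin C, fell as well. The rise was Fbln5, an elastic fibre protein, at 10.0, 7.61, 8.39 and 7.67 CPM in GrnKO and at 3.54, 3.29, 4.15 and 2.30 CPM in WT (1.36 ± 0.19, adjusted p = 1.1e-05). The falls of the collagens Col4a1, Col4a2 and Col1a2, chosen after their values were seen, were at low levels, with Col4a1 at 0.448 CPM in GrnKO and 1.61 CPM in WT. The stromal cell markers summed to 1.39 to 3.56 CPM in GrnKO and 2.31 to 4.50 CPM in WT (exact permutation test, two-sided, p = 0.257), and their part in these values was not tested.

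Secreted factors of coagulation and growth moved in both directions. Of 14 genes of coagulation and fibrinolysis 1 rose and 6 fell, 7.14% and 42.9%. Plaur (-0.97 ± 0.21; -0.64 without WT replicate 1, the highest library), the urokinase receptor, and Tfpi (-0.51 ± 0.12), the inhibitor of tissue factor, fell, and Tfpi was no longer called in the 10 libraries of little Y-linked signal, where its change was -0.58. F7, coagulation factor VII, rose (2.49 ± 0.57) at a low level, 0.894, 1.40, 0.839 and 1.27 CPM in GrnKO and 0.154, 0, 0.451 and 0.165 CPM in WT.

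Of 22 growth factors 8 rose and 6 fell, 36.4% and 27.3%. Bmp2 was at 14.7, 20.4, 17.5 and 20.6 CPM in GrnKO and at 4.46, 6.71, 8.11 and 7.68 CPM in WT (1.41 ± 0.13, adjusted p = 1.1e-07). Gas6, the ligand of Mertk and Axl, was at 500, 456, 454 and 531 CPM in GrnKO and at 185, 226, 311 and 258 CPM in WT (1.00 ± 0.10, adjusted p = 5.0e-07). Vegfb (0.99 ± 0.10) rose with them. Igf1, insulin-like growth factor, was at 282, 304, 294 and 295 CPM in GrnKO and at 539, 459, 451 and 422 CPM in WT (-0.66 ± 0.07, adjusted p = 1.1e-06), so it fell while the other named ligands rose.

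Receptors of antibodies and of cytokines had more rises than falls. Of 19 Fc receptors and ITAM signalling genes 8 rose and 5 fell, 42.1% and 26.3%, with 3 falls without GrnKO replicate 4 or without WT replicate 4. Fcgr4, an activating receptor of IgG, was at 28.6, 39.5, 30.1 and 29.5 CPM in GrnKO and at 8.62, 13.0, 10.8 and 9.33 CPM in WT (1.61 ± 0.12, adjusted p = 8.9e-09). The adaptors Blnk (0.57 ± 0.07) and Lcp2 (0.63 ± 0.08) rose, while Tyrobp (-0.52 ± 0.07), the ITAM adaptor DAP12, fell. Of 31 inhibitory and paired receptors 11 rose and 8 fell, 35.5% and 25.8%, an order that turned with a minimum mean of 5 CPM. Cd200r4 was at 122, 137, 150 and 118 CPM in GrnKO and at 60.0, 68.5, 81.1 and 53.2 CPM in WT (1.01 ± 0.08, adjusted p = 8.9e-09). Slamf7, a self-ligand receptor of leukocytes, was at 60.8, 73.0, 69.9 and 59.0 CPM in GrnKO and at 27.7, 26.0, 27.0 and 26.9 CPM in WT (1.28 ± 0.11), and Slamf8 (2.00 ± 0.24) and Cd300a (0.71 ± 0.08), which binds lipids of dying cells, rose too.

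Cytokine receptors had 11 rises and 6 falls among 30 genes, 36.7% and 20.0%, near the 34.5% and 20.6% of genes at 20 to 100 CPM. Lifr, the receptor of leukemia inhibitory factor, was at 4.65, 5.78, 6.29 and 5.90 CPM in GrnKO and at 15.4, 17.8, 14.9 and 17.0 CPM in WT (-1.52 ± 0.10, adjusted p = 3.1e-09). Il7r, the interleukin 7 receptor, was at 322, 426, 384 and 324 CPM in GrnKO and at 215, 212, 207 and 165 CPM in WT (0.87 ± 0.09, adjusted p = 7.4e-07). The chains of the GM-CSF receptor parted: Csf2ra, its specific chain, fell (-0.82 ± 0.10) and Csf2rb, the shared signalling chain, rose (0.49 ± 0.07). Csf1r, the receptor of the M-CSF in the medium, had a log2 change of 0.11 ± 0.07 (adjusted p = 0.188) and did not pass the test.

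Among 16 purinergic receptors and ectonucleotidases 5 rose and 3 fell, 31.2% and 18.8%, with Entpd1 (0.68 ± 0.11), CD39, which degrades extracellular ATP, and P2ry1 (0.75 ± 0.15), a receptor of ADP, higher, and Nt5e (-0.83 ± 0.17), CD73, lower; Nt5e was not called in the 10 libraries of little Y-linked signal (-0.44). Of 29 ion channels and calcium handling genes 7 rose and 4 fell; the 24.1% that rose is about the share of all genes. The rises numbered 3 without GrnKO replicate 2 or WT replicate 1 and 4 without GrnKO replicate 1 or 4 or WT replicate 2 or 4, and the order turned in 5 alternative settings. Atp2b4, a plasma membrane calcium pump, was at 46.5, 42.6, 41.9 and 35.4 CPM in GrnKO and 86.2, 89.0, 81.1 and 98.7 CPM in WT (-1.10 ± 0.10, adjusted p = 1.2e-07), and the proton channel Hvcn1 rose (0.94 ± 0.17).

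Most genes typical of monocytes fell. Of 17 tested, 2 rose and 11 fell, 11.8% and 64.7%, and 8 fell by more than 2-fold, with a list median of -0.93, against 23.1% rises, 21.5% falls, 7.46% falls of more than 2-fold and a median of 0.00 over all genes. Over the settings the median lay between -1.15 and -0.47, and 9 to 11 members fell. Nr4a1, a nuclear receptor needed for patrolling monocytes in mice, was at 39.3, 33.5, 30.1 and 24.8 CPM in GrnKO and at 95.4, 89.0, 72.1 and 65.8 CPM in WT (-1.34 ± 0.09, adjusted p = 1.3e-09). Cx3cr1 and Itgal, given above, were also among the falls, as was Cd14 (-0.58 ± 0.07), the co-receptor for endotoxin. Ccr2, the receptor of monocyte recruitment, was chosen after its values were seen and was at 2.29, 2.19, 3.46 and 2.27 CPM in GrnKO and at 4.46, 7.53, 4.96 and 8.23 CPM in WT (-1.32 ± 0.20, adjusted p = 3.4e-05). Ms4a6c was one of the rises, at 161, 210, 171 and 183 CPM in GrnKO and at 89.3, 116, 117 and 115 CPM in WT (0.72 ± 0.09). In bulk RNA fewer cells of one kind and less of their RNA per cell cannot be told apart.

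Genes of resident macrophages went both ways. Of 16 tested, 4 rose and 6 fell, 25.0% and 37.5%. Folr2, a folate receptor of resident macrophages, was at 261, 262, 318 and 245 CPM in GrnKO and at 554, 575, 586 and 472 CPM in WT (-1.01 ± 0.07, adjusted p = 1.9e-09). Pf4, a chemokine also typical of platelets, was at 248 ± 26.2 CPM in GrnKO and 465 ± 60.4 CPM in WT (-0.91 ± 0.09). The other megakaryocyte and erythroid markers stayed under 1 CPM in all 8 libraries. Folr2 and Pf4 fell in every batch while Gas6 and Cd5l rose in every batch.

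Sensors of danger and of nucleic acids were more often lower than higher. Of 20 genes of the inflammasome and pyroptosis 2 rose and 7 fell, 10.0% and 35.0%. Nlrp3, the sensor of the best known inflammasome, was at 9.65, 11.3, 12.6 and 9.73 CPM in GrnKO and at 20.0, 21.9, 20.7 and 24.7 CPM in WT (-1.02 ± 0.12, adjusted p = 3.0e-06). Nlrp1b (-0.97 ± 0.19) and Nek7 (-0.37 ± 0.09), a partner of Nlrp3, fell, while the cytokine gene Il18 rose (0.42 ± 0.09). Of 15 genes of cytosolic nucleic acid sensing 0 rose and 7 fell by edgeR, 46.7% of them falling, with a list median of -0.26 (0 rose at an unadjusted p under 0.05, 0 by DESeq2 and 1 by limma). Trex1, which degrades cytosolic DNA, was at 5.36, 4.87, 6.29 and 4.72 CPM in GrnKO and at 12.9, 13.0, 9.01 and 9.33 CPM in WT (-1.04 ± 0.15, adjusted p = 2.0e-05). Irf3 (-0.68 ± 0.11), a transcription factor of the interferon response, and Ikbke (-0.59 ± 0.10), one of its kinases, fell with it. Irf7, which interferon induces, was at 16.8, 16.4, 8.74 and 4.72 CPM in GrnKO and at 27.7, 35.6, 16.7 and 23.0 CPM in WT, where the highest GrnKO library passed the lowest WT library (-1.22 ± 0.24, adjusted p = 0.00135). Counts of rises in this list ran from 0 to 1 and of falls from 4 to 8 over the alternative settings.

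The parts of the phagocyte NADPH oxidase split, with 3 rises and 3 falls among 7 genes. Cyba, its membrane subunit p22phox, rose (0.45 ± 0.07) and Ncf1, the cytosolic subunit p47phox, fell (-0.60 ± 0.08). Of 30 genes of eicosanoids and endocannabinoids 10 rose and 11 fell, 33.3% and 36.7%, an order that turned without a filter on low counts. The rises numbered 4 without WT replicate 2, 5 without GrnKO replicate 2 and 6 without GrnKO replicate 4, WT replicate 1 or WT replicate 4. Mgll, named above, releases arachidonic acid from an endocannabinoid and was at 18.9, 22.2, 23.8 and 17.7 CPM in GrnKO and at 1.38, 0.548, 0.811 and 0.603 CPM in WT (adjusted p = 1.3e-10). Ptafr, the receptor of platelet-activating factor, was at 147, 179, 175 and 171 CPM in GrnKO and at 60.0, 61.6, 94.6 and 65.8 CPM in WT (1.26 ± 0.10, adjusted p = 2.8e-08). Hpgds, the prostaglandin D synthase of blood cells, rose (0.96 ± 0.09), and Pla2g4a, the cytosolic phospholipase A2, fell (-0.98 ± 0.11).

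In the BCL2 family genes that hold back cell death and genes that promote it rose. Of 17 tested, 9 rose and 0 fell by edgeR, 52.9% rising against 23.1% of all genes, with a list median of 0.28 (0 fell at an unadjusted p under 0.05, 0 by DESeq2 and 0 by limma). Mcl1, which holds back cell death, was at 572, 608, 524 and 560 CPM in GrnKO and at 400, 411, 446 and 384 CPM in WT (0.46 ± 0.07, adjusted p = 5.1e-05). Bid, which promotes it, was at 39.3, 42.6, 45.4 and 44.2 CPM in GrnKO and at 26.2, 19.9, 31.5 and 21.9 CPM in WT (0.80 ± 0.12, adjusted p = 1.9e-05). Neither gene's groups overlapped. Bcl2a1d (1.17 ± 0.15) and Bcl2a1b (1.46 ± 0.22) are near-identical copies of a survival gene, and their counts may be split between them. Over the alternative settings 6 to 11 members rose and 0 fell.

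**Figure D4:**
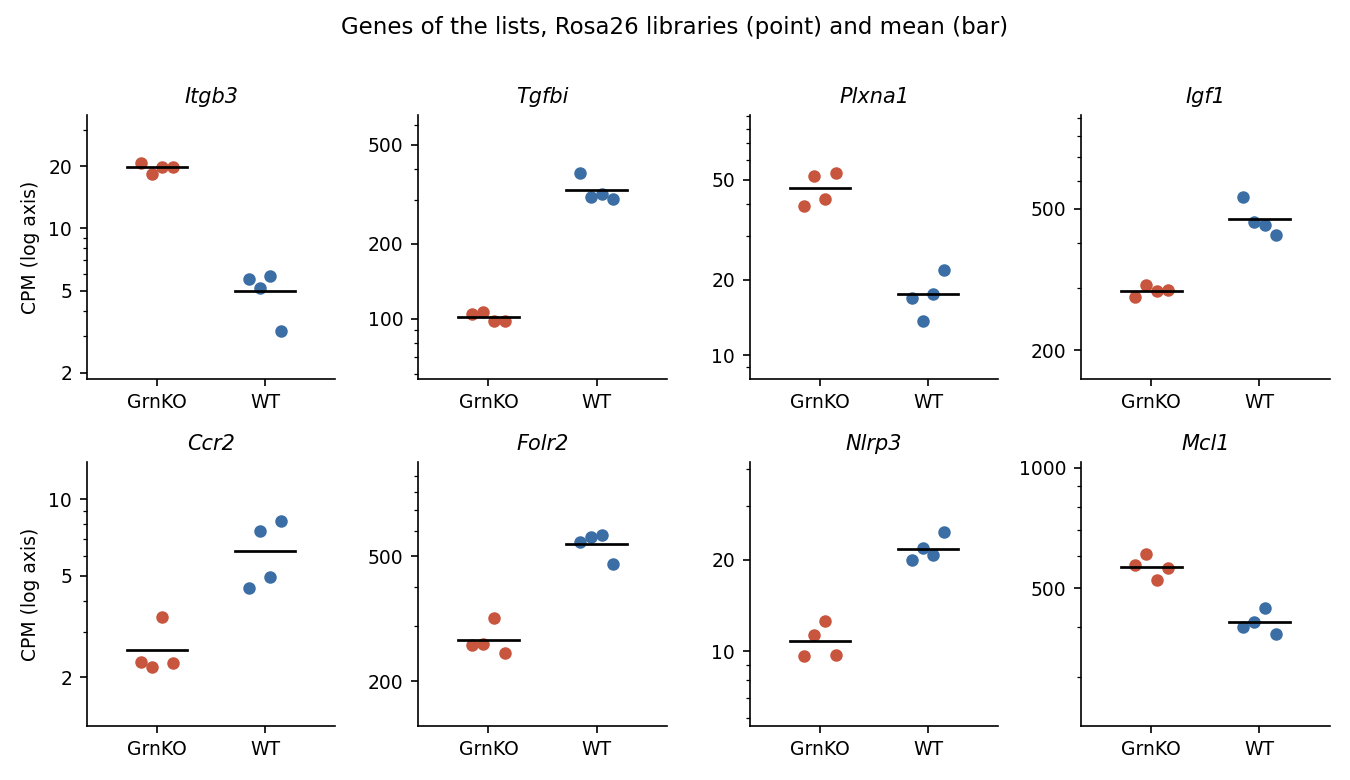
Level in CPM (log axis) of 8 genes of the lists in each library, with GrnKO left of WT and a bar at each mean; from the top left an integrin chain, a matrix protein, a plexin, a growth factor, a monocyte receptor, a folate receptor, an inflammasome sensor and a BCL2 family gene. Itgb3, Plxna1 and Mcl1 lie higher in all GrnKO libraries than in any WT library, and the other 5 genes lie lower.

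Transcription factors rose and fell in equal number, 14 and 14 of 47, or 29.8% each. Bhlhe41 was at 68.9 ± 6.63 CPM in GrnKO and 31.1 ± 3.37 CPM in WT (1.14 ± 0.08, adjusted p = 7.9e-09). Its paralogue Bhlhe40 was at 27.5, 30.4, 32.8 and 28.3 CPM in GrnKO and at 15.4, 16.4, 17.1 and 13.7 CPM in WT (0.93 ± 0.09, adjusted p = 4.0e-07). Both are repressors that bind E-boxes. Mxd1 (1.02 ± 0.14), an antagonist of Myc, rose. In the 10 libraries of little Y-linked signal it was not called, with a change of 0.69. Hif1a, the hypoxia factor, was at 129, 137, 136 and 127 CPM in GrnKO and at 200, 199, 225 and 225 CPM in WT (-0.68 ± 0.07, adjusted p = 6.2e-07).

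Targets and inhibitors of signalling pathways followed no single direction. Of 17 feedback regulators of MAP kinases 2 rose and 5 fell, 11.8% and 29.4%, an order that turned in the 10 libraries of little Y-linked signal. The falls numbered 3 without GrnKO replicate 3 and without WT replicate 2, 3 or 4. Dusp1, a phosphatase of MAP kinases, was at 111, 91.3, 90.9 and 79.6 CPM in GrnKO and at 200, 171, 225 and 154 CPM in WT (adjusted p = 6.9e-08), Errfi1 (-1.39 ± 0.14), an inhibitor of EGF receptors, fell, and Ier3 (0.86 ± 0.10) rose. Of 32 genes of TGF-beta and BMP signalling 5 rose and 7 fell, 15.6% and 21.9%, an order that turned in 5 alternative settings, scaling by the total count among them. The rises numbered 3 without GrnKO replicate 3, GrnKO replicate 4 or WT replicate 1. Id1, a target of BMP signals, was at 39.3, 33.5, 32.8 and 29.5 CPM in GrnKO and at 84.6, 110, 108 and 93.3 CPM in WT (-1.57 ± 0.11, adjusted p = 9.2e-09), lower in GrnKO while the ligand Bmp2 was higher. Skil (-0.94 ± 0.08), a repressor of Smads, fell with it. Of 23 genes of Notch and Wnt signalling 8 rose and 6 fell, 34.8% and 26.1%, an order that turned with a minimum mean of 5 CPM and in the 10 libraries. Rbpj, the transcription factor of Notch, was at 261, 277, 273 and 254 CPM in GrnKO and at 569, 445, 451 and 384 CPM in WT (-0.79 ± 0.10, adjusted p = 7.6e-06), and Tcf7l2 (-0.76 ± 0.08), of the Wnt pathway, fell too.

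The called changes in the metabolic lists described here were small. Of 24 genes of the tricarboxylic acid cycle 11 rose and 3 fell, 45.8% and 12.5%, none by more than 2-fold, and 7 rose without GrnKO replicate 4 or without WT replicate 4. Idh2 (0.56 ± 0.09), a mitochondrial isocitrate dehydrogenase, Sdhb (0.48 ± 0.08), of succinate dehydrogenase, and citrate synthase, Cs (0.50 ± 0.09), were among the rises. Of 7 genes of the pentose phosphate pathway 3 rose and 1 fell (1 and 0 without GrnKO replicate 1 or WT replicate 1, and 0 falls without WT replicate 2), but of these calls Rpia (0.73 ± 0.14) alone held under every alternative setting. Of 16 genes of serine and one-carbon metabolism 3 rose and 1 fell; 18.8% and 6.25% are both under the shares of all genes, and of the rises Mthfd1 was not called in 14 of 21 alternative settings. Phgdh, the first enzyme of serine synthesis, was at 28.2, 30.4, 32.1 and 29.5 CPM in GrnKO and at 10.6, 16.4, 16.2 and 18.7 CPM in WT (0.96 ± 0.13, adjusted p = 8.8e-06). Of 13 amino acid transporters of the cell surface 6 rose and 1 fell, 46.2% and 7.69%. Only 2 rose without GrnKO replicate 2 or WT replicate 4 and in the 8 Rosa26 libraries fitted alone, and 3 without WT replicate 2; the fall was not called without GrnKO replicate 4, WT replicate 2 or WT replicate 4. Slc7a5 (0.68 ± 0.20), which carries large neutral amino acids, was at 6.74 CPM in GrnKO and 4.06 CPM in WT.

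Among genes of lipid synthesis outside the cholesterol pathway more rose than fell. Of 29 genes of phospholipid synthesis and remodelling 12 rose and 3 fell, 41.4% and 10.3%, with 5 falls without WT replicate 3. Pcyt1a, the rate-limiting enzyme of phosphatidylcholine synthesis, was at 157, 176, 164 and 171 CPM in GrnKO and at 95.4, 75.3, 108 and 82.3 CPM in WT (0.89 ± 0.09, adjusted p = 4.8e-07). Gpat4, which starts glycerolipid synthesis, was at 92.9, 91.3, 90.9 and 97.3 CPM in GrnKO and at 40.0, 37.6, 63.1 and 42.8 CPM in WT (1.04 ± 0.11, adjusted p = 1.4e-06). No GrnKO library was as low as any WT library for either enzyme. Of 23 genes of sphingolipid synthesis 10 rose and 3 fell, 43.5% and 13.0%, with Sptlc1 (0.71 ± 0.09), of the first step, and Degs1 (0.61 ± 0.08), which makes ceramide, higher and Sgms1 (-0.77 ± 0.08), the sphingomyelin synthase of the Golgi, lower. Of 26 peroxisome genes 11 rose and 3 fell, 42.3% and 11.5%, with Acox3 (0.54 ± 0.07), an oxidase of branched fatty acids, the one of smallest p. Of 24 genes of glutathione and thioredoxin 6 rose and 8 fell, 25.0% and 33.3%, an order that turned without a filter on low counts and with limma. There Gstm1 (0.96 ± 0.10) and Gsr (0.90 ± 0.12), glutathione reductase, rose, and Gpx1 (-0.55 ± 0.07), the cytosolic glutathione peroxidase, fell.

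Lists of protein translocation and sorting had more rises than falls, none of more than 2-fold, and the share of rises in the vesicle coats and in retromer and sorting nexins was near the 34.5% of genes at 20 to 100 CPM. Of 25 genes of the translocon and signal peptide processing 10 rose and 6 fell, 40.0% and 24.0%. Sec61a1, the channel into the endoplasmic reticulum, was at 272, 286, 294 and 295 CPM in GrnKO and at 154, 171, 198 and 176 CPM in WT (0.72 ± 0.07, adjusted p = 2.5e-07), and Rpn1 (0.78 ± 0.09), of the enzyme that attaches sugars, rose too. Of 32 genes of COPII and COPI coats 10 rose and 5 fell, 31.2% and 15.6%. The falls numbered 3 when any one library but GrnKO replicate 3 or WT replicate 3 was left out. The rises held Tmed9 (0.36 ± 0.08), a cargo receptor. Of 26 ESCRT genes, which sort cargo into vesicles of the late endosome, 12 rose and 2 fell, 46.2% and 7.69%, with 1 fall without GrnKO replicate 2 or 3 and 0 without GrnKO replicate 4, WT replicate 2 or WT replicate 4. Chmp1a was at 186, 240, 227 and 230 CPM in GrnKO and at 96.9, 130, 81.1 and 148 CPM in WT (0.98 ± 0.14, adjusted p = 5.4e-05), and Chmp1b (0.52 ± 0.09) and Chmp6 (0.64 ± 0.11) rose as well. Of 20 genes of retromer and sorting nexins, which return cargo from endosomes, 7 rose and 1 fell, 35.0% and 5.00%, with Snx8 at 429, 517, 489 and 472 CPM in GrnKO and at 200, 294, 243 and 307 CPM in WT (0.88 ± 0.09, adjusted p = 4.7e-07) and Vps35 (0.50 ± 0.11) of the retromer core.

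Among genes that build ribosomes more rose than fell, while ribosomal protein genes took a lower share of the counts. Of 36 genes of ribosome biogenesis 15 rose and 3 fell, 41.7% and 8.33%, with 5 falls without WT replicate 3. Fbl, the methyltransferase of ribosomal RNA, was at 154, 158, 178 and 171 CPM in GrnKO and at 64.6, 103, 113 and 104 CPM in WT (0.79 ± 0.11, adjusted p = 1.5e-05), and Ddx21 (0.62 ± 0.08), a nucleolar helicase, rose with it. Of 78 mitochondrial ribosomal proteins 21 rose and 11 fell (6 without WT replicate 2); the 26.9% that rose is near the share of all genes and under that of genes at 20 to 100 CPM, and 14.1% fell. Mrpl12 (0.96 ± 0.10) was the rise of smallest p. Of 39 proteasome subunits 13 rose and 5 fell, 33.3% and 12.8%, with Psmd3 at 172, 186, 196 and 186 CPM in GrnKO and at 81.6, 110, 108 and 121 CPM in WT (0.82 ± 0.10, adjusted p = 3.1e-06). Of 20 cytosolic tRNA synthetases 7 rose and 5 fell, 35.0% and 25.0%, with Qars (-0.80 ± 0.10) the fall of smallest p. The shares that rose among proteasome subunits and tRNA synthetases were near the 34.5% of genes at 20 to 100 CPM. Of 67 translation factors 20 rose and 16 fell, 29.9% and 23.9%, an order that turned with a minimum mean of 5 CPM (10 fell without WT replicate 2), with Eif4e3 (0.88 ± 0.12) up and Eif4a2 (-1.01 ± 0.12) down. Splicing factors rose and fell in equal number, 15 and 15 of 57, or 26.3% each, with Sf3a1 (0.83 ± 0.09) among the rises and Hnrnph1 (-0.53 ± 0.08) among the falls.

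The change with Grn loss was next tested for a difference between Rosa26 and TKO cells. In TKO cells 767 genes were called (4.99%), 2.53% up and 2.45% down, and the interaction of genotype and edit was called for 2067 genes (13.4%), with the change in Rosa26 cells above that in TKO cells for 7.63% and below it for 5.80%. The interaction count ran from 1233 to 3608 when one library was left out: it was 1233 without GrnKO replicate 1, 1294 without GrnKO replicate 2 and 3608 without WT replicate 3. It was 910 with no batch term and 388 in the 10 libraries of little Y-linked signal. The count of calls in TKO cells was 345 with no batch term, 50 in those 10 libraries and 1208 with DESeq2. Of the 1573 genes that changed more than 2-fold in Rosa26 cells, 633 had a called interaction, and in 632 of these the change was smaller in TKO cells. The exception has an identifier and no name in the files. Genes chosen for a large change in one comparison tend to show a smaller one in another, so this direction is a description and was not tested.

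Cdkn1c and Lat were the 2 of the 15 largest rises that were not called in TKO cells. Cdkn1c was at 4.50 CPM in GrnKO TKO and 2.89 CPM in WT TKO (0.63 ± 0.25, adjusted p = 0.178), with an interaction of 2.22 ± 0.34 (adjusted p = 0.00110). Lat had a change of 0.53 ± 0.32 in TKO cells (adjusted p = 0.397) and an interaction of 2.10 ± 0.45 (adjusted p = 0.00568). Dio2 was called in both edits, at 2.32 CPM in GrnKO TKO and 0.479 CPM in WT TKO, with an interaction of 3.28 ± 0.36 (adjusted p = 3.2e-05). Tspan7, Cd28, Mfge8 and Gadd45a were called in TKO cells too, with smaller changes (interactions of 2.82 ± 0.69, 1.67 ± 0.19, 1.46 ± 0.16 and 1.62 ± 0.21, all called). Among the 15 largest falls Cx3cr1, Arg1 and Saa3 were called in TKO cells. Pamr1 was at 77.6 CPM in GrnKO TKO and 87.2 CPM in WT TKO (-0.16 ± 0.17, adjusted p = 0.677), with an interaction of -2.57 ± 0.25 (adjusted p = 8.3e-05).

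For other genes a difference between the edits was not shown. Fam171a2 was at 4.51 CPM in GrnKO TKO and 1.15 CPM in WT TKO (1.97 ± 0.24), with an interaction of 0.69 ± 0.36 (adjusted p = 0.210). Fbln5 had 1.39 ± 0.19 in TKO cells and an interaction of -0.03 ± 0.26 (adjusted p = 0.960), and Plxna4 had 1.11 ± 0.16 and 0.14 ± 0.22 (adjusted p = 0.719). Grn itself had an interaction of -0.10 ± 0.15 (adjusted p = 0.698). By list, 7 of 17 BCL2 family genes and 6 of 17 monocyte genes had a called interaction, against 13.4% of all genes. So had 8 of 23 genes of sphingolipid synthesis and 8 of 30 cytokine receptors. Other lists had few or none. These were 0 of 14 genes of coagulation and fibrinolysis and 0 of 15 of cytosolic nucleic acid sensing. Retromer and sorting nexins had 1 of 20, and ESCRT genes 2 of 26. The medians in TKO cells were 0.02 for the BCL2 family and -0.39 for monocyte genes. Pseudogenes had a called interaction in 239 of 961 cases (24.9%), against 13.4% of all genes. In TKO cells 3 pseudogenes rose and 29 fell, where 2.53% of all genes rose and 2.45% fell. The library totals overlapped between genotypes in TKO cells, at 18387630 to 28511950 counts in GrnKO and 16246705 to 21463730 in WT. In Rosa26 cells they did not overlap, so the difference in depth between genotypes also varied with the edit. Its part in these interactions was not tested.

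**Figure D5:**
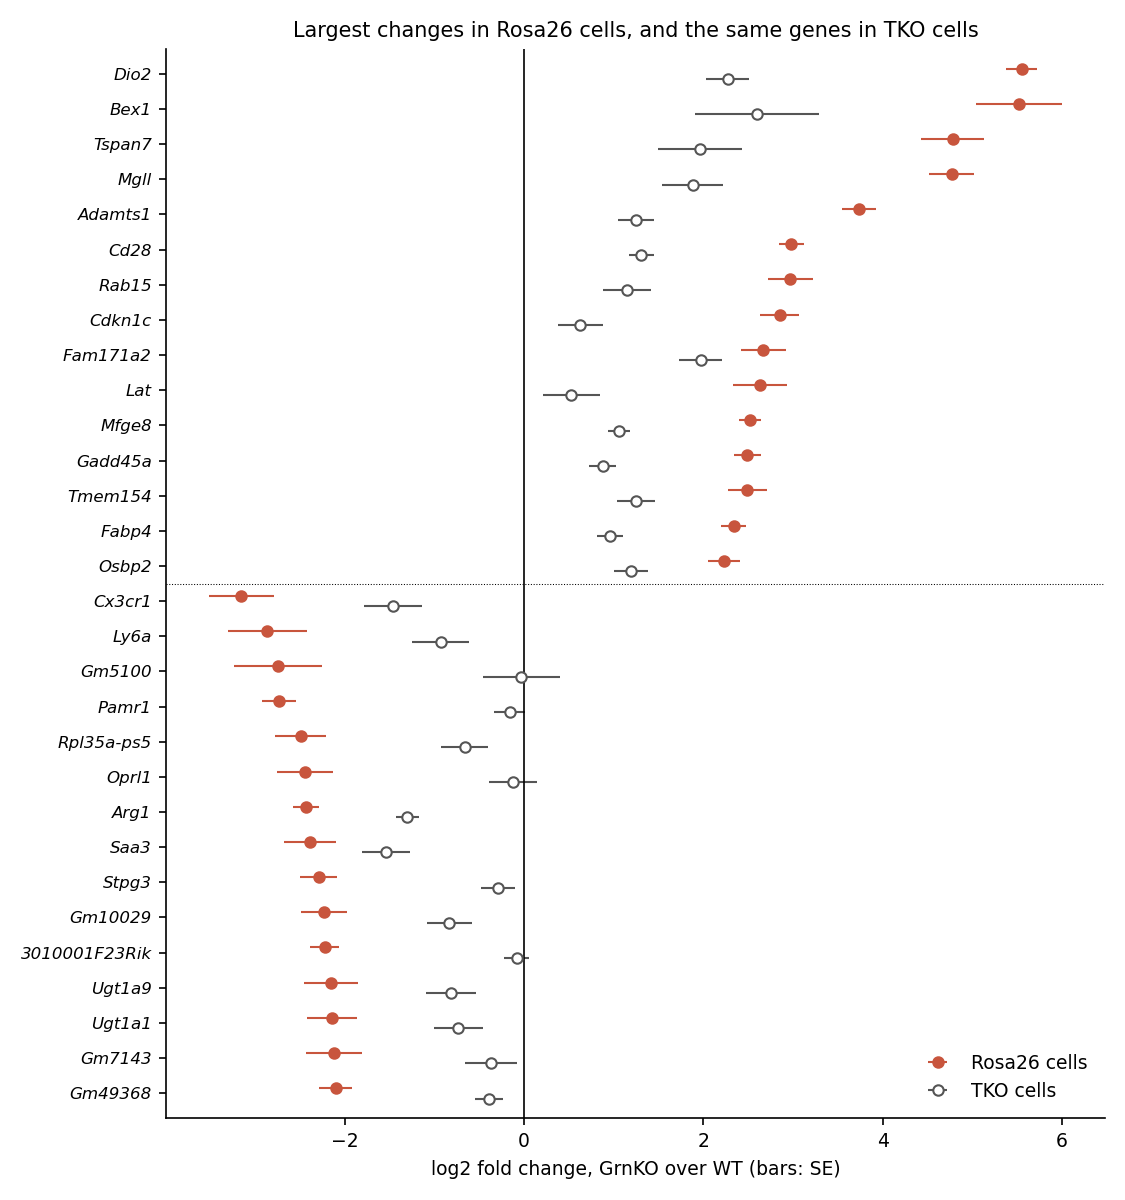
Log2 fold change of GrnKO over WT, with SE as bars, in Rosa26 cells (filled) and TKO cells (open) for the 15 largest rises (upper) and 15 largest falls (lower) in Rosa26 cells. Genes were chosen on the filled values, so the filled points lie farther from 0 by choice; Fam171a2 and Saa3 are among those whose difference between edits did not pass the test.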

How the data were processed

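RNA of 16 samples was read as 3′ tags from QuantSeq 3′ libraries with molecular identifiers, per the labels' protocols. The deposited table holds estimated counts per gene for 56980 genes, of which 11.0% of non-zero values are not whole and none carries more than 2 significant digits. A second deposited table holds the authors' normalized signal, in counts per 1000000 of the scaled library. STAR 2.7.9a, Salmon 1.10.1, edgeR 4.6.2, R 4.5.1 and the build GRCm39 are named in the submitters' processing notes, with no role. How identifiers were collapsed, and which strand setting and annotation were used, is not given in the sources used here.

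After rounding, the counts were fitted with edgeR 4.0.16 (R 4.3.3; TMM scaling, filterByExpr, quasi-likelihood test) over all 16 libraries, with group and batch as terms, which left 15385 genes. Batches pair the groups by label: each batch holds 1 library of each group, and deviations of the paired GrnKO and WT Rosa26 libraries correlated by 0.142, 0.256, -0.222 and 0.265. Their mean was 0.110, and another of the 24 possible pairings reached 0.212 (exact permutation test, p = 0.208). The pairing thus rests on the labels and was not shown by these correlations. A call is an adjusted p under 0.05 (Benjamini-Hochberg over all genes tested), and SE was taken from the log2 change and its F value. Levels in CPM are counts per 1000000 of the TMM-scaled library. The labels give a batch to each sample and do not say which came from separate animals. For each genotype and batch, Xist and Ddx3y showed the same pattern with Rosa26 and with TKO. They were at 212 and 34.2 CPM in WT Rosa26 replicate 2, and at 217 and 31.7 CPM in WT TKO replicate 2. In GrnKO replicate 4 they were at 15.6 and 97.3 CPM with Rosa26, and at 25.2 and 122 CPM with TKO. Whether these pairs of libraries share an animal was not tested, and the fit and its interaction had no term for such pairs. The p-values thus measure the spread between these samples, which may be technical in part.

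Named genes were the 15 largest rises and falls on the log2 scale and the 10 largest in CPM, among called genes of 5 CPM or more in a group that moved 1 way in all 4 batches, without Grn and genes of lysosomal and cholesterol lists, and up to 4 called genes of smallest p per list; a few of these, and 1 list, are not reported here. The members and lists were chosen with earlier results of these data known. Gene classes came from GENCODE M21, in which 15028 of the genes tested have a chromosome. Promoter sequences are RefSeq's, build GRCm38.p6. Alternatives were other scalings, filters and tools (DESeq2 1.42.0, limma 3.58.1), no batch term, fewer libraries, thinned counts and a covariate of Y-linked transcripts. On simulated counts 59.7% of 1.5-fold, 68.7% of 2-fold and 93.9% of 4-fold changes of this comparison were recovered among 15123 genes. The simulation changed only 67, 67 and 66 genes at these folds, while 6858 were called in the data. The adjustment of p differs with that number, so these shares need not hold for the data.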

Additional observations from a re-analysis of the deposited data

Results flagged for a closer look

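For 108 of 166 genes named, the change with Grn loss in Rosa26 cells differed from that in TKO cells by the interaction of genotype and edit (edgeR, adjusted p under 0.05). Over all 15385 genes tested it was called for 2067 (13.4%). Values are the log2 change in Rosa26 cells minus that in TKO cells. Many of the genes were chosen for their change in Rosa26 cells, which favours a called interaction and the sign of that change. The 108 are thus no measure of how common such a difference is. Among the largest rises the interaction was positive for Adamts1 (2.49), Cd28 (1.67), Cdkn1c (2.22), Dio2 (3.28), Fabp4 (1.37), Gadd45a (1.62), Lat (2.10), Mfge8 (1.46), Mgll (2.89), Osbp2 (1.03), Rab15 (1.82), Tmem154 (1.23) and Tspan7 (2.82). Among the largest falls it was negative for 3010001F23Rik (-2.14), Arg1 (-1.13), Cx3cr1 (-1.69), Gm10029 (-1.40), Gm49368 (-1.71), Gm5100 (-2.71), Gm7143 (-1.74), Ly6a (-1.93), Oprl1 (-2.32), Pamr1 (-2.57), Rpl35a-ps5 (-1.83), Stpg3 (-2.0) and Ugt1a1 (-1.41). Among abundant genes and cell markers it was positive for Fabp5 (0.74), Kdr (0.97), Ptms (0.44) and Syngr1 (0.97), and negative for Actb (-0.48), Rps27a (-0.42), Rtn4 (-0.79) and S100a6 (-0.59).

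Genes of adhesion and matrix with a positive interaction were Itgb3 (0.70), Plxna1 (0.71) and Plxnc1 (0.62). It was negative for Abi1 (-0.65), Cyfip1 (-0.96), Fermt1 (-0.99), Itga6 (-0.49), Itgam (-0.82), Lims1 (-0.63), Ptk2 (-0.69) and Tgfbi (-0.87). Of the growth factors, Bmp2 (0.79), Gas6 (0.69) and Vegfb (0.55) were positive and Igf1 (-0.69) negative. Of the receptors and their adaptors, Cd200r4 (0.64), Cd300a (0.56), Csf2rb (0.51), Fcgr4 (0.73), Hvcn1 (1.21), Il7r (0.71), Lcp2 (0.59), P2ry1 (0.99) and Slamf7 (0.77) were positive. Atp2b4 (-0.53), Csf2ra (-0.68), Lifr (-0.87) and Tyrobp (-0.29) were negative. Of the genes of monocytes and resident macrophages, Ms4a6c (0.63) was positive and Cd14 (-0.35), Folr2 (-1.20), Nr4a1 (-1.0) and Pf4 (-0.38) were negative.

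Of the effectors, Bcl2a1b (1.15), Bcl2a1d (1.29), Cyba (0.41), Hpgds (0.45), Il18 (0.52), Mcl1 (0.44) and Ptafr (0.94) had a positive interaction, and Nlrp1b (-0.94), Nlrp3 (-0.84) and Pla2g4a (-0.69) a negative one. Among regulators it was positive for Bhlhe40 (1.15), Bhlhe41 (0.89), Ier3 (0.96) and Mxd1 (0.93), and negative for Dusp1 (-0.69), Errfi1 (-0.78), Hif1a (-0.39), Id1 (-1.10), Rbpj (-0.70), Skil (-0.55) and Tcf7l2 (-0.54). Metabolic genes gave Acox3 (0.63), Gpat4 (0.94), Gsr (0.58), Gstm1 (0.50), Idh2 (0.45) and Sptlc1 (0.44) on the positive side and Sgms1 (-0.47) on the negative. Genes of protein synthesis, sorting and decay gave Chmp1b (0.43), Eif4e3 (0.65), Fbl (0.67), Mrpl12 (0.70), Psmd3 (0.50), Rpn1 (0.54), Sec61a1 (0.71), Sf3a1 (0.60), Snx8 (0.39) and Tmed9 (0.38) on the positive side. Eif4a2 (-0.54), Hnrnph1 (-0.41) and Qars (-0.70) were negative.

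One library stood apart from the other 3 of its group in 26 of 346 sets of 4 values tested, where chance flags about 1 in 20. In GrnKO, replicate 1 stood apart for Hpgds (114 CPM) and Itgam (182 CPM), replicate 2 for Chmp1b (103 CPM), Entpd1 (63.9 CPM), Fcgr4 (39.5 CPM) and Nt5e (3.04 CPM), replicate 3 for Ccr2 (3.46 CPM) and replicate 4 for Fam171a2 (7.37 CPM). In WT, replicate 1, the shallowest library, stood apart for Abi1 (1169.5 CPM), Cyfip1 (462 CPM), Ms4a6c (89.3 CPM), Plaur (41.5 CPM), Slc7a5 (2.15 CPM), Tcf7l2 (72.3 CPM) and Tgfbi (385 CPM), and for the summed mast cell and basophil markers (1.54 CPM) and endothelial markers (39.5 CPM). WT replicate 3 stood apart for Nlrp1b (4.96 CPM), Ptafr (94.6 CPM), Rpia (11.7 CPM), Rpn1 (243 CPM), Tmem154 (1.35 CPM), Vps35 (117 CPM) and the share of mitochondrial counts (1.31%). WT replicate 4 stood apart for Il7r (165 CPM) and Mxd1 (18.1 CPM).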

How the results depend on the processing

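The 6858 calls numbered 5261 to 7302 over scalings, filters, tools, thinning and covariates, 6041 with no replicate block and 4586 in the 10 libraries of little Y-linked signal. In the 8 Rosa26 libraries fitted alone 5425 genes were called, with 407 rises and 891 falls over 2-fold. Leaving out one Rosa26 library gave 5784 to 7284 calls, with 2949 to 3777 rises and 2691 to 3507 falls, 398 to 526 rises and 958 to 1428 falls over 2-fold, 572 to 1145 calls in TKO cells and 1233 to 3608 interactions. Rises numbered 2314 in the 10 libraries. With a mean of 5 CPM or more, 160 genes rose and 337 fell over 2-fold, and limma on log2(CPM + 1) gave 287 falls over 2-fold. In TKO cells 1208 genes were called with DESeq2, 345 with no replicate block and 50 in the 10 libraries. Interactions were 910 with no replicate block and 388 in the 10 libraries. Rises made up 51.7% of calls, against 49.0% with DESeq2 and 49.4% with RLE scaling, where falls outnumbered them, 65.6% and 65.7% with limma on the authors' CPM (pseudocounts 1 and 0.1), where the median of all genes shifted by 0.11 and 0.12, and 61.9% with no filter, where it shifted by 0.11. The cause of these differences was not tested, except that fewer libraries or genes entered some fits. No named gene changed sign under any setting tried. Of 211 genes followed through the settings, 16 were not called in the 10 libraries, with Fth1, Tfpi, Nt5e and Mxd1 among them. In the shallowest library, of 7069527 counts, genes under 1 CPM rest on few reads.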
